A study of Caenorhabditis elegans with 2 samples.

Results

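Chromatin immunoprecipitation followed by sequencing (ChIP-seq) located the F33H1.4 protein on the genome of Caenorhabditis elegans. The peaks described here are the weaker ones that lie around the 5' ends of genes read in 1 direction only. Of 3250 peaks in the list the authors made from both replicates, 868 were chosen by their signal and position. The 1000 peaks of highest signal were left out. The summit (the point that the authors' list marks within a peak) had to lie in a window around an annotated 5' end of protein-coding genes of a single strand. The window began 1000 bp before that end and closed 200 bp after it. The 868 are called weak one-direction peaks. The same windows held 461 of the 1000 strongest peaks, called strong one-direction peaks. Windows of genes on both strands held 339 weak peaks, called weak divergent peaks, and 362 strong ones, and 1220 peaks lay in no promoter window.

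The worms were young adults of strain RW12303, collected whole at 62.5 hours, after synchrony was set by bleaching and starving first-stage larvae. The strain carries st12303, a CRISPR insertion that fuses F33H1.4 on chromosome II to TY1, EGFP and 3xFLAG tags, and both replicates carry it. Chromatin sheared to between 200 and 800 bp was precipitated with an antibody to the green fluorescent protein. There was 1 group of 2 biological replicates, without a second condition and without a control library analysed here. It is 1 edited line, the cells that a peak comes from cannot be told apart in whole animals, and a label of whole worms has no marker that a peak list could check. Read depth is unknown from the lists.

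F33H1.4 is annotated in RefSeq as a protein with a C2H2-type domain, a zinc-coordinating fold that many DNA-binding proteins use. Promoters lie around and just upstream of the 5' ends of genes, where transcription factors and RNA polymerase assemble. In Caenorhabditis elegans many neighbouring genes point away from each other and share the sequence between them, while others stand behind a gene of the same strand, sometimes in an operon that is transcribed as 1 unit. Annotated 5' ends are often sites where a short leader has been spliced on, so the true start of transcription can lie further upstream.

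Sequences that reach 50 bp to each side of the summit are given for a few members, chosen for the motifs and positions the results turn on (build ce11, which is WBcel235, written 5' to 3' on the strand of the nearest gene, RefSeq genome). The first set holds the 6-base sequence CGCGAA on either strand, in capitals with any other searched motif. With the main settings it was the only motif of 8 that differed in frequency from the strong one-direction peaks.
F38E11.9 (chrIV:9444541-9444641, minus strand): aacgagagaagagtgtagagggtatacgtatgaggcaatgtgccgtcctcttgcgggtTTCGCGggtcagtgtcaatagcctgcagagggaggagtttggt
hrpu-2 (chrIV:2177691-2177791, plus strand): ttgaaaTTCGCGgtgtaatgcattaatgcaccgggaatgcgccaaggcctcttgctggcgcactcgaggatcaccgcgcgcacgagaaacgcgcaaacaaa
mes-2 (chrII:14383798-14383898, plus strand): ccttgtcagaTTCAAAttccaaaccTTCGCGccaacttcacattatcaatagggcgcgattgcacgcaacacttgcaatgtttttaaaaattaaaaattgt
The second set shows 8-base sequences that recur in the summit windows, GCGAGACC and AAAGGCGC in the first, AAAGGCGC in the next and GCAAACAC in the last, on either strand and in capitals. These were picked out after the windows had been read.
Y54F10AR.1 (chrIII:2575907-2576007, minus strand): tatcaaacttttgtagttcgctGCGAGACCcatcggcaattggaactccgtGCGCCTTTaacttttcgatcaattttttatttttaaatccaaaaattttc
Y65A5A.2 (chrIV:16411853-16411953, plus strand): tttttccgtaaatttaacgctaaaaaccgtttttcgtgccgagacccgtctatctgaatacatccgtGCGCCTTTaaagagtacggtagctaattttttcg
duo-1 (chrV:11554423-11554523, plus strand): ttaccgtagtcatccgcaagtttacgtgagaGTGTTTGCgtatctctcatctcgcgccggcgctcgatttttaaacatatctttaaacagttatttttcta
The third set shows the 3 members of highest signal on the X chromosome, with the motif GCGTCTC in capitals where it occurs on either strand.
sec-16A.2 (chrX:8286887-8286987, plus strand): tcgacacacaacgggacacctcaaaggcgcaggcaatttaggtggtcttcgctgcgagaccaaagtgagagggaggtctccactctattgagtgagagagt
vha-15 (chrX:2237571-2237671, plus strand): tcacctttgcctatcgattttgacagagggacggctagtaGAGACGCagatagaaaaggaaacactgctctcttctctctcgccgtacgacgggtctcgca
erd-2.1 (chrX:10158850-10158950, minus strand): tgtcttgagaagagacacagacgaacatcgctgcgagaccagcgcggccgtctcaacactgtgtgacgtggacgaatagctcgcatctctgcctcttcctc

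Signal is the authors' value for the height of a peak, without a stated scale. The weak one-direction peaks had signals of 2.135 to 306.4, with a median of 123.4 and quartiles of 92.97 and 175.7, and the strong one-direction peaks had 307.6 to 6178, with a median of 701.4. Because signal chose the members, these values describe them and nothing is tested with them. Just inside the limit were F38E11.9, a protein with a nuclear receptor ligand-binding domain, at 306.4 (rank 1001), vps-4, an ATPase of membrane sorting, at 306.1 (rank 1003), and lst-4, a PX domain protein, at 305.6 (rank 1004). Just outside it were F36A2.7 at 307.6 (rank 1000) and C27A7.6 at 308.3 (rank 997).

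A thresholded peak of both replicates overlapped 406 of the 868 weak one-direction peaks (46.8%, exact 95% interval 43.4 to 50.2%), against 460 of the 461 strong one-direction peaks and 172 of the 339 weak divergent peaks (50.7%). Over the whole list the share was 60.1%. The series list was made from the same replicates, so this share is not independent of the choice by signal and is given without a test. Replicate 2 held 651 of the 868 (75%) and replicate 1 held 476 (54.8%). A total of 245 were in replicate 2 only, 70 in replicate 1 only and 147 in neither. Of those 147, 138 overlapped a region of both unthresholded lists, although these lists cover 10028538 and 10024960 bp of the genome's 100286401. The authors' conservative list overlapped 743 of the 868 (85.6%), near its share over the whole list, 2849 of 3250 (87.7%).

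Recovery by signal is given as a description, since the series signal comes from the same replicates. Members were cut by signal into groups of 217, and from the strongest to the weakest group 92.2%, 61.8%, 19.4% and 13.8% were overlapped in both replicates. When the summits had to lie within 100 bp of each other, which was chosen after seeing the data, the shares were 90.8%, 60.4%, 17.97% and 1.38%, and 370 of 868 (42.6%) in all. Of the 868, 778 had a summit within 100 bp in both unthresholded lists, and across those peaks of the same libraries Spearman's rho between the replicates' signals was 0.64 and Pearson's r of log2 signals 0.61. The members were cut to a narrow range of signal, which bears on both values, so they are not compared with those of stronger peaks. The signal was higher in replicate 2 for 592 of the 778, with a median ratio of 1.30, but the scale between lists is not stated.

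**Figure D1:**
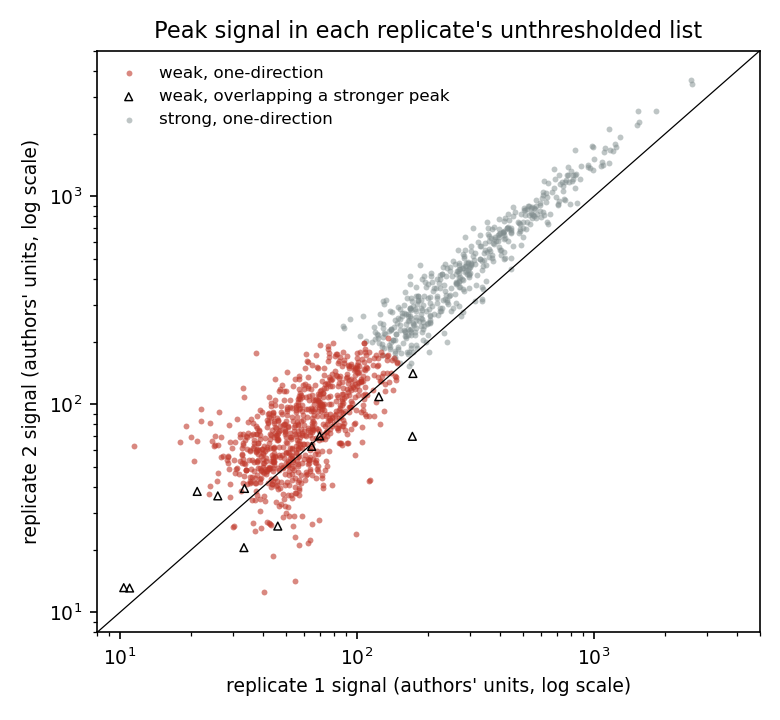
Each point is a peak whose summit lay within 100 bp of a summit in both replicates' unthresholded lists, with its signal in replicate 1 on the horizontal and in replicate 2 on the vertical log axis, and the line marks equal values. The 778 weak one-direction peaks (red, or open triangles where they overlap a stronger peak of the series list) lie at lower values than most of the 459 strong ones (grey), as the choice by signal sets, and 592 of them lie above the line.

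Of the 10 members of highest signal, all but lrpr-1 were called in both replicates. The peak of F38E11.9 scored 134.2 in replicate 1 and 164 in replicate 2 on the signal scale. That of hrpu-2, which encodes a protein with an RNA recognition motif, had 140.1 and 164. That of daz-1, a DAZ-family RNA-binding protein needed for oogenesis, had 142.9 and 165.9. All 3 were called in both replicates, with replicate 2 the higher. In contrast lrpr-1, a leucine-rich pentatricopeptide repeat homolog, was called in replicate 2 with a signal of 176.7 and had no summit within 100 bp in replicate 1, although its series signal of 301.9 ranked 1016. The peak at glh-1, a P granule helicase of the germline, had 69.52 in replicate 1 and 192.1 in replicate 2, and that at fbxa-83, named for the F-box, had 146.2 and 130.3.

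Most of the lowest members overlapped a stronger peak. The authors' q was over 0.05 for 53 of the 868 (6.11%), whose signals ran from 2.135 to 57.61, against 0 of 461 strong one-direction peaks and 12 of 339 weak divergent peaks. Over the whole list it was over 0.05 for 164 of 3250 (5.05%), and outside promoters for 8.12%. Of those 53, 46 overlapped a stronger peak of the same list. In all 59 members (6.80%) did so, against 5.35% of the whole list and 7.62% of the peaks outside promoters. Of the 59 members, 50 were among the weakest 217, and for 44 the stronger peak was itself outside the 1000 strongest. The 5 lowest were at pole-1 (2.77), a DNA polymerase epsilon subunit, ral-1 (2.416), a small GTPase, wbp-11 (2.287), a WW domain-binding protein, spat-3 (2.204), a RING finger protein, and rfc-3 (2.135), a replication factor C subunit. Each stood beside a higher member at the same gene, with signals of 89.33 at pole-1, 93.24 at ral-1, 92.99 at wbp-11, 109 at spat-3 and 71.87 at rfc-3.

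The overlap also entered the replicate values. The member at rpn-3, a proteasome subunit, had a series signal of 28.4, and the peaks that overlapped it had 1580 in replicate 1 and 2363 in replicate 2. It is 898 bp wide and overlaps the series peak of rank 11, and the nearest replicate 1 summit within 100 bp had a signal of 60.83. The member at znf-598, a ubiquitin ligase, had a series signal of 5.01 and overlapping replicate peaks of 268 and 448.8, with no summit within 100 bp in either replicate. Without the 59 overlapping peaks, 373 of 809 members (46.1%) were overlapped in both replicates. Of all members, 527 of 868 (60.7%) were exactly 340 bp wide, against 1 of the 461 strong one-direction peaks, 175 of the 339 weak divergent peaks (51.6%), 735 of the 1220 peaks outside promoters (60.2%) and 44.3% of the whole list. In named members of that width, such as those at his-47, lim-8 and nhr-255, the summit was the midpoint of the peak. The part of this in the comparisons of summit position, motifs and small RNA genes with strong peaks was not tested.

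**Figure D2:**
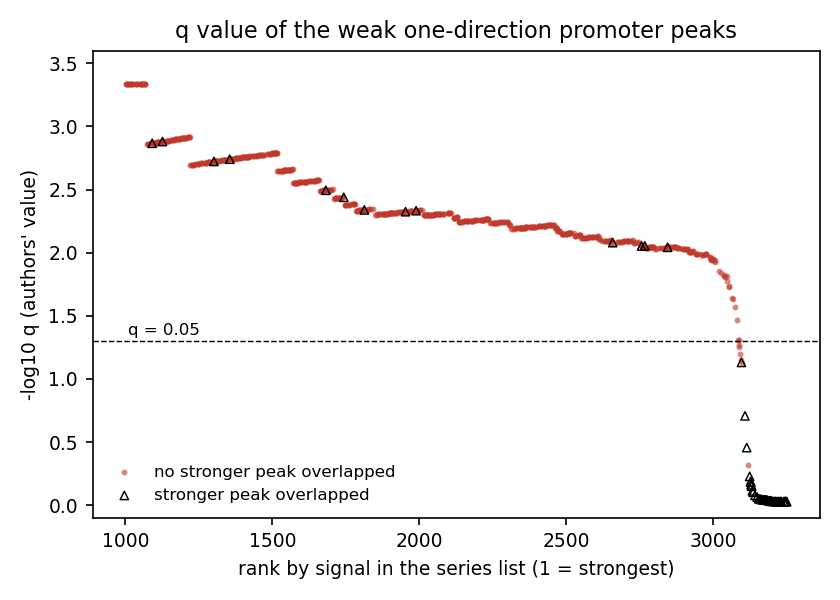
Each point is 1 of the 868 weak one-direction peaks, with its rank by signal in the series list on the horizontal axis and the authors' −log10 q on the vertical axis, and the dashed line is at q = 0.05. The 59 open triangles overlap a stronger peak, and 46 of the 53 peaks below the line are among them.

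The window that chose the members reaches further upstream than downstream. Within it, 777 of the 868 (89.5%) were upstream of the nearest 5' end and the median was 239 bp upstream (quartiles 106.5 and 471.2 bp), against a median of 265 bp for the strong one-direction peaks. From 0 to 200 bp upstream lay 289 weak peaks (33.3%, 30.2 to 36.5%) and 147 strong peaks (31.9%, 27.7 to 36.4%), a difference that did not pass the test (two-sided Fisher's exact test with Benjamini-Hochberg adjustment over 23 tests, adjusted p = 0.897). At or downstream of the 5' end were 91 weak one-direction summits (10.5%, 8.53 to 12.7%), 15 strong one-direction summits (3.25%, 1.83 to 5.31%) and 36 weak divergent summits (10.6%, 7.55 to 14.4%), which was not among the tests. Any part of the span of the gene whose window held the summit contained 219 weak peaks (25.2%) and 56 strong peaks (12.1%). At glh-1 the summit was 157 bp downstream, while at lrpr-1 it was 28 bp upstream and at hrpu-2 155 bp upstream.

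**Figure D3:**
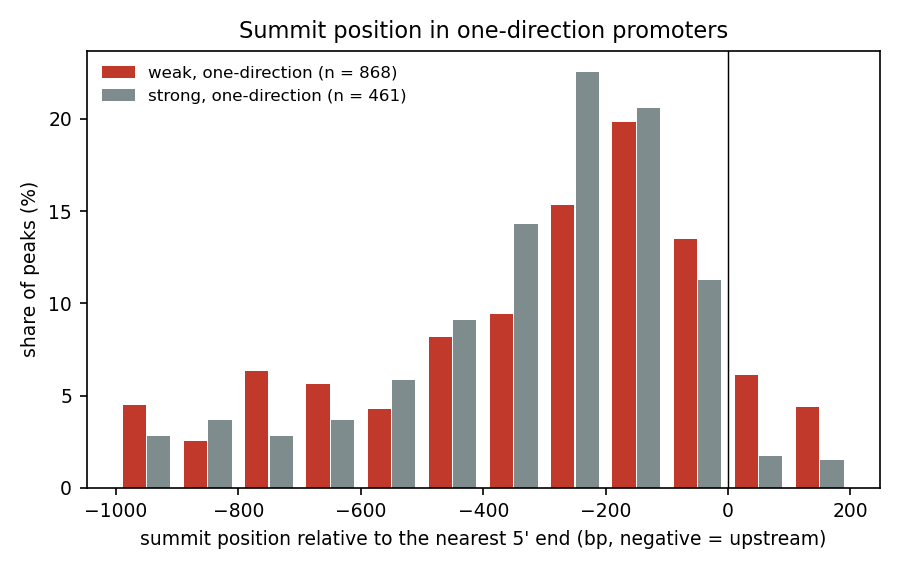
The share of summits in each 100-bp step from the nearest 5' end is shown for 868 weak one-direction peaks (red, left bar) and 461 strong ones (grey, right bar), with negative positions upstream. The most filled step of the weak peaks is 100 to 200 bp upstream with 19.8%, and that of the strong peaks 200 to 300 bp upstream with 22.6%.

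The neighbouring gene upstream was on the same strand for 565 weak peaks (65.1%) and 311 strong peaks (67.5%), a difference of −2.37 points that did not pass the test (adjusted p = 0.897 by the same exact test), and that changed sign in 3 alternatives. That neighbour lay within 500 bp for 253 weak peaks (29.1%). The summit lay inside a different protein-coding gene from the one whose promoter window held it in 86 of 868 weak peaks (9.91%, 8.001 to 12.1%) and 18 of 461 strong peaks (3.90%, 2.33 to 6.10%), a difference of 6.003 points (adjusted p = 0.000474 by the same exact test). Over the whole list the share was higher, 752 of 3250 (23.1%), with 635 of 1220 (52.05%) among the peaks outside promoters. In 60 of the 86 weak one-direction peaks the gene that held the summit was on the same strand. Examples are the peak of E01B7.2, signal 299.5, whose summit lay in C06H5.8, a gene of the same strand 17 bp upstream, and that of csr-1, an Argonaute protein of germline small RNAs, signal 248.2, whose summit lay in frpr-10. With the 500 strongest peaks left out in place of 1000 the difference was 4.756 points and no longer passed the exact test (adjusted p = 0.0669).

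Genes of small structured RNAs lay close to more of the weak one-direction peaks than of either other promoter set, although not more than over the whole list, where 299 of 3250 summits (9.20%) had one within 200 bp. A gene of transfer RNA (tRNA, which carries amino acids), small nuclear RNA (snRNA, part of the splicing machinery) or small nucleolar RNA (snoRNA, which guides RNA modification) was within 200 bp of 72 of the 868 summits (8.29%, 6.55 to 10.3%). The share was 12 of 461 for strong one-direction peaks (2.60%, 1.35 to 4.50%) and 8 of 339 for weak divergent peaks (2.36%, 1.02 to 4.60%). Both differences passed, at 5.69 points (adjusted p = 0.000291) and 5.94 points (adjusted p = 0.0005, two-sided Fisher's exact test over the same 23). The median gap to the next protein-coding gene upstream was 1276 bp for weak one-direction, 994 bp for strong one-direction and 472 bp for weak divergent peaks, and its part in the result was not tested. In the list of replicate 1 alone, which stands for leaving out replicate 2, they were 3.83 points (adjusted p = 0.0949) and 3.481 points (adjusted p = 0.17, exact tests).

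Of the 72, 34 were next to tRNA genes, 25 next to snoRNA genes and 13 next to snRNA genes, and 30 summits lay inside such a gene, 19 of them in a tRNA gene. F38E11.9, the first member by rank, had its summit 51 bp from the snRNA gene F38E11.11 and 551 bp upstream of its own 5' end. The peak of fbxa-83 was 37 bp from the snoRNA gene Y67A10A.14 and that of mrpl-23, a mitochondrial ribosomal protein, 31 bp from the snoRNA gene T08B2.13, at 775 and 970 bp upstream of their 5' ends. The summit of his-42, a histone gene, was 57 bp from the snRNA gene C47F8.9, and its signals were 66.8 in replicate 1 and 123.8 in replicate 2. The median distance upstream was 315.5 bp for the 72, against 239 bp for all members. Peaks outside promoters had such a gene within 200 bp in 202 of 1220 cases (16.6%), and 35 of the 72 were found in both replicates (48.6%). Copies of tRNA and snRNA genes can be nearly identical, and the placing of reads with several matches is not stated, so which copy was bound is uncertain.

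**Figure D4:**
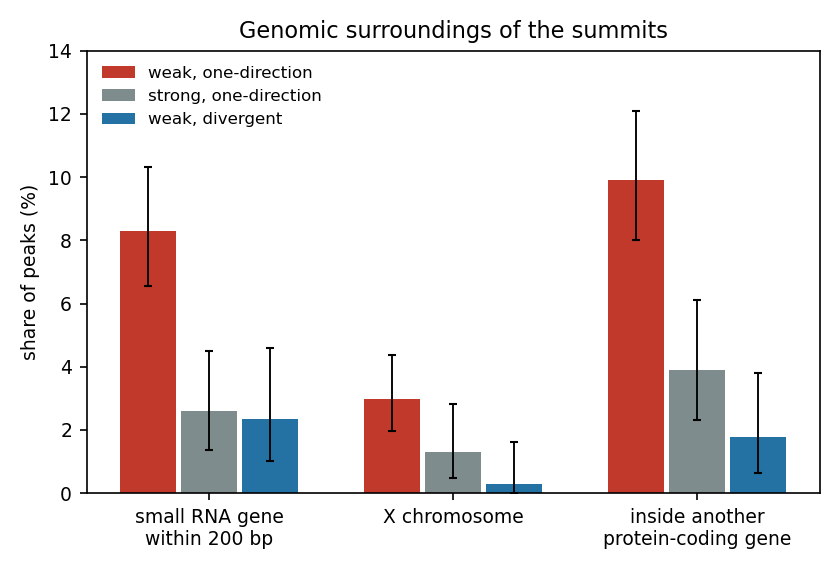
Bars give the share of peaks with a small RNA gene within 200 bp, on the X chromosome and inside another protein-coding gene, for 868 weak one-direction peaks (red), 461 strong one-direction peaks (grey) and 339 weak divergent peaks (blue), with exact 95% intervals for counting error. The red bar is the highest of the 3 promoter sets shown, at 8.29%, 3.00% and 9.91%. Over the whole list, not drawn, the shares were 9.20%, 2.86% and 23.1%. The X chromosome difference from the strong one-direction peaks did not pass the test, and summits inside another gene were tested against the strong one-direction peaks only.

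The X chromosome held a share of the weak one-direction peaks (3.00%) near that of the whole list, in which it was 93 of 3250 (2.86%). There were 66.7 per 1000 protein-coding genes on chromosome I, 50.2 on II, 67.4 on III, 54.6 on IV, 24.0 on V and 9.52 on X, against 40.3, 25.8, 40.2, 25.9, 11.8 and 2.20 strong one-direction peaks. In both sets, per gene, chromosomes I and III had the most and V and X the fewest. On X were 26 of the 868 (3.00%, 1.97 to 4.36%), 6 of the 461 strong one-direction peaks (1.30%, 0.479 to 2.81%) and 1 of the 339 weak divergent peaks (0.295%, 0.00747 to 1.63%). The difference from the weak divergent peaks was 2.70 points (adjusted p = 0.00936) and that from the strong one-direction peaks 1.69 points (adjusted p = 0.233, both from the same 23 Fisher's exact tests). The first rests on a single divergent peak and did not pass in 6 of 10 alternatives. Of the strong divergent peaks 5 of 362 (1.38%) were on X. The median gap to the next protein-coding gene upstream was 2472 bp for X members and 1230 bp for members on autosomes. The part of this spacing in the difference was not tested.

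The 3 X members of highest signal were at sec-16A.2, vha-15 and erd-2.1, whose summit sequences are printed above. The peak of sec-16A.2, a scaffold of vesicle budding from the endoplasmic reticulum, had 87.24 in replicate 1 and 178.3 in replicate 2. That of vha-15, a subunit of the vacuolar proton pump, had 61.65 and 161.3. That of erd-2.1, the receptor that returns proteins to the endoplasmic reticulum, had 75.41 and 124.7. All 3 were called in both replicates with replicate 2 the higher, and 13 of the 26 X members were found in both. Median G and C content in these windows was 54.5% for X members and 43.6% for those on autosomes, and the part of base composition in the difference was not tested.

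The motif CGCGAA, which is TTCGCG on the other strand, was present in 95 of the 868 windows (10.9%, 8.95 to 13.2%), against 21.9% (18.2 to 25.97%) of the 461 strong one-direction windows. This difference of −10.96 points passed the test (adjusted p = 3.67e-06, two-sided Fisher's exact test over 23 tests). Weak divergent peaks held it in 41 of 339 windows (12.1%, 8.82 to 16.05%), and that difference of −1.15 points did not pass the exact test (adjusted p = 0.897). In windows of the same length centred 150 bp upstream of all 19973 protein-coding genes its share was 2.61%, and at all 3250 summits 12.1%. From the strongest to the weakest 217 members its share was 13.4%, 15.7%, 8.29% and 6.45%. The median G and C content was 44.1% in weak and 44.6% in strong one-direction windows, against 33.7% in the promoter windows of all genes. A match of letters is a description and does not show that a protein sat there.

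The other 7 motifs, each searched on both strands, did not pass against either set with the main settings. Against strong peaks TTTCAG passed in the list of replicate 2 alone (5.503 points, adjusted p = 0.0104, exact test). TTTGAA passed against them with the 1500 strongest left out (−6.346 points, adjusted p = 0.0405, exact test). TATAAA, the core of the TATA box, was in 4.15% of weak windows, 4.77% of strong windows, 3.24% of weak divergent windows and 13.4% of all promoter windows. AGATAA, the site form of GATA factors, was in 3.11%, 2.60% and 3.83% of these peak sets and 7.39% of all promoter windows. GCGTCTC was in 6.57%, 6.72% and 5.90%, against 1.73% of all promoter windows. TTTGAA was in 25.2%, 28.0% and 29.8%, against 29.6% of all promoter windows, and TTTCAG, the end of the splice acceptor, in 11.3%, 8.24% and 11.5%, against 15.1%. CACGTG, the E-box of bHLH factors, was in 2.42%, 2.39% and 2.95%, against 1.78%, and CCGCCC in 4.15%, 3.69% and 5.31%, against 2.54%.

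A weak one-direction peak lay in a promoter window of 804 of the 19973 protein-coding genes (4.03%), and a strong one-direction peak in one of 472 (2.36%). Gene lists are described by counts and carry no test. Of 93 germline and maternal RNA regulators, 14 had a weak one-direction peak (15.1%) and 21 a strong one (22.6%). Besides daz-1 at 302.1 and glh-1 at 264.1 they included puf-6 at 266.3, puf-5 at 256.4 and puf-9 at 196.8, Pumilio-type RNA-binding proteins, csr-1, glp-1 at 133, the Notch receptor of germline stem cells, and nos-1 and nos-2 at 96.72 and 84.24, which encode Nanos proteins. The puf-6 peak overlaps the stronger peak of rank 331.

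Chromatin regulators had a weak peak in 17 of 123 genes (13.8%) and a strong one in 9 (7.32%). The highest of the weak peaks was at mes-2, the histone H3 lysine methyltransferase of the Polycomb group, with a signal of 283.2 in the series list, and the replicates' own lists gave it 108.1 in replicate 1 and 178.3 in replicate 2. Next came a peak at 259.9 in a promoter window of set-23, a putative histone methyltransferase, with its nearest 5' end at ced-2. After it were sir-2.1 at 251, a sirtuin deacetylase, and lin-36 at 195.5. Lower ones were at let-418 (140.9), a Mi-2 chromatin remodeller, met-1 (89.92), a histone methyltransferase, and chd-1 (74.57), a remodeller.

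DNA replication and cell cycle genes had a weak peak in 13 of 93 (13.98%) and a strong one in 10 (10.8%). The replicative helicase genes among them were mcm-5 at 206.9, mcm-4 at 95.13 and mcm-2 at 82.73, and the cell cycle kinase genes wee-1.3 at 172.3, cdk-7 at 112.1 and cdk-2 at 98.15. The median signal of the peaks in this list was 96.6, against 123.4 over all members. At mcm-5 the signal was 77.56 in replicate 1 and 131.1 in replicate 2. At mcm-4 only replicate 2 had a thresholded summit, of 56.7, and the unthresholded list of replicate 1 had 43.92.

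Splicing and mRNA processing genes had a weak peak in 10 of 75 (13.3%) and a strong one in 4 (5.33%). They included snrp-3 at 261.6, a small nuclear ribonucleoprotein, suf-1 at 246.6, a 3' end cleavage factor of the Suppressor of forked family, and cpsf-1 at 244.5, of the polyadenylation factor. Histone genes had 8 of 72 (11.1%) with a weak and 1 (1.39%) with a strong peak, among them his-42 at 197.8, his-47 at 186 and his-37 at 176.4. Copies of histone genes are close to identical in sequence, and peaks there share the doubt about reads with several matches.

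The pair of ribosomal lists differed from each other by count. Mitochondrial ribosomal protein genes had a weak peak in 7 of 70 and a strong one in 1 (1.43%), led by mrpl-23 at 291.9, mrpl-28 at 177.2 and mrpl-46 at 173.3. Cytosolic ribosomal protein genes had a weak peak in 4 of 78 (5.13%) and a strong one in 24 (30.8%), and the weak ones were rpl-32 at 164.4, rpl-27 at 106.8, rps-8 at 97.58 and rpl-16 at 86.45. At rpl-32 the signal was 49.12 in replicate 1 and 116.1 in replicate 2, and at rps-8 only replicate 1 had a thresholded peak, of 85.22. Translation factors had 5 of 42 weak (11.9%) and 7 strong (16.7%), proteasome subunits 4 of 33 (12.1%) and 3 (9.09%), and the respiratory chain and ATP synthase 6 of 65 (9.23%) and 8 (12.3%).

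Several large gene families and the marker lists had lower shares than the 4.03% over all genes. A weak peak was found at 7 of 1276 chemoreceptor genes (0.549%), 3 of 322 F-box genes (0.932%), 3 of 269 nuclear hormone receptor genes (1.12%), 3 of 240 C-type lectin genes (1.25%) and 3 of 180 collagen genes (1.67%). Marker genes had a weak peak in 2 of 178 neuronal genes (1.12%), 2 of 96 epidermal genes (2.08%), 1 of 39 intestinal genes (2.56%) and 0 of 38 genes of body wall muscle and pharynx. The collagen gene col-111 had 291.1 and col-157 264.3, and the homeobox list had 4 of 81 (4.94%), with ceh-43 at 142.1 the highest. These counts include peaks near small RNA genes, as at fbxa-83. The summit windows of ceh-43, of the homeobox gene lim-8 and of the nuclear hormone receptor gene nhr-255 read as tRNA sequence. The end of the window of the C-type lectin gene clec-126 does so on its other strand. These are examples and not a full count. Whether such peaks belong to the listed gene or to the small RNA gene was not tested. Homeobox, nuclear hormone receptor and collagen genes had no strong one-direction peak. The same held for the cytochrome P450 and UDP-glucuronosyltransferase, sperm gene, muscle and pharynx, intestinal and epidermal lists.

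**Figure D5:**
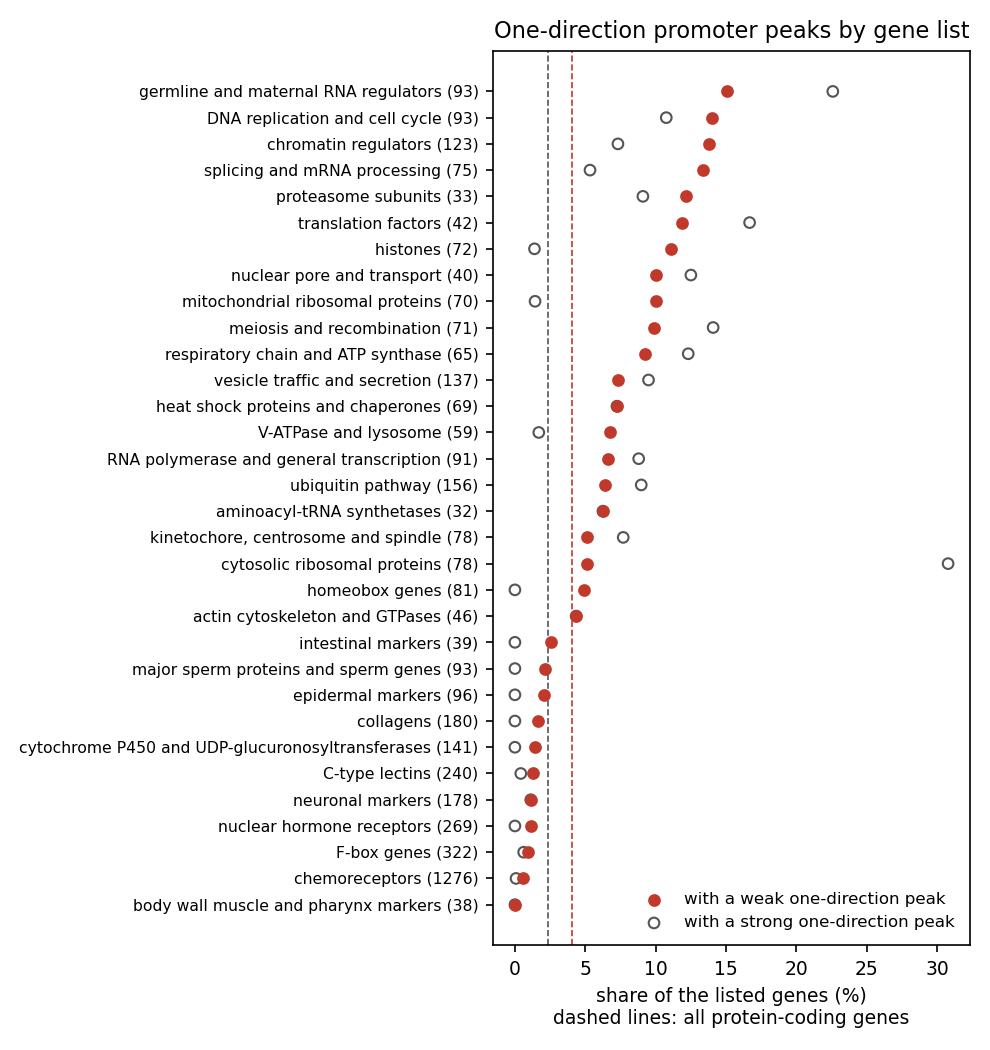
For each of 32 gene lists, with its number of genes in brackets, the share of genes with a weak one-direction peak (filled) and with a strong one (open) is shown on the horizontal axis. Dashed lines mark the shares over all protein-coding genes, 4.03% and 2.36%, and germline and maternal RNA regulators have the highest filled point at 15.1%.

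Most genes had a single weak peak. The 868 peaks had 781 nearest genes, of which 79 were nearest to at least 2 members and 6 to at least 3. Y65A5A.2 had 5, with signals of 280.8, 171.9, 86.11, 16.28 and 9.731, and 3 each were at Y41E3.1, T02E1.2, pck-2, which encodes a phosphoenolpyruvate carboxykinase, zfp-1, a zinc finger protein of chromatin, and ivph-3. The strongest at Y65A5A.2 had 109 in replicate 1 and 171.6 in replicate 2, and the weakest 3 had no thresholded summit within 100 bp in either. A peak of the 1000 strongest was in a promoter window of 61 of the 804 genes as well.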

How the data were processed

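ChIP-seq peak lists of F33H1.4 from 2 biological replicates of whole young adults were used, on build ce11 per the labels. Each peak in the deposited lists carries the authors' signal, score and −log10 q, and the lists follow an irreproducible discovery rate procedure, per the deposited list names. Aligner, peak caller, its control and the scale of the signal: not given in the sources used here.

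Genes came from the Ensembl annotation of WBcel235 (release 115) and sequence from RefSeq. Peaks were shared at an overlap of at least 1 bp, and summits were matched within 100 bp. The members and gene lists were chosen with earlier results of these data known. Named genes were the 10 strongest, the 5 weakest, the 10 highest in both replicates, the 3 strongest of each list, of X and near small RNA genes, the strongest holder of each motif and the genes with most members; other list members in the text, glh-1, Y54F10AR.1 and duo-1 among them, were picked after their values were seen. Members were compared with strong one-direction and with weak divergent peaks by two-sided Fisher's exact tests, adjusted by Benjamini-Hochberg over 23 tests. Peaks are not replicates, so these p-values describe the lists and not the spread between animals. Exact binomial 95% intervals cover counting error only. The tests were checked on simulated independent peaks with a planted difference larger than any found in the tests, so that check does not cover smaller differences. Alternatives were the conservative list, each replicate's own list, other promoter windows, other numbers of strongest peaks left out, the 2500 strongest peaks, other overlaps, distances to small RNA genes and window lengths; leaving out peaks that overlap a stronger one and matching summits were chosen after seeing the data. The tools were Python 3.11.15, pandas 2.3.3, numpy 2.4.6, matplotlib 3.10.9 and scipy 1.17.1.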

Additional observations from a re-analysis of the deposited data

How the results depend on the processing

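Among the recomputed values 83 kept their direction and their side of the threshold, stayed within their interval or, for counts of motifs, within 1.5 times, and 21 did not. The number of members ran from 626 to 1098 under the alternatives. No paired analysis was possible because there is 1 group. Values are differences in points, weak one-direction minus the other peaks, with p adjusted over 23 Fisher's exact tests.

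When the list of either replicate replaced the series list, and the same share of strongest peaks was left out, the differences ran from 3.83 to 5.311 for small RNA genes against strong peaks, from 3.481 to 6.187 against weak divergent peaks, from 1.953 to 2.42 for X against weak divergent peaks and from −2.404 to 2.296 for same-strand neighbours, and 1 to 2 motifs passed against strong peaks. Without replicate 2 the p was 0.0949, 0.17, 0.218 and 0.732 in that order. The X difference from weak divergent peaks also did not pass the exact test with the conservative list (2.221, p = 0.0702), with windows of 500 to 100 bp (2.345, p = 0.0812) or 2000 to 200 bp (1.842, p = 0.133), or with 500 (1.75, p = 0.102) or 1500 (2.733, p = 0.0883) strongest peaks left out. The same-strand difference was 3.999 with the shorter window and 2.757 with 500 left out, and the difference close upstream was −1.56 with the longer window and −3.567 with 1500 left out; none of these passed. Summits in another gene differed by 4.756 with 500 left out (exact test, p = 0.0669). With 1500 left out 2 motifs, CGCGAA and TTTGAA, passed against strong peaks. The share in both replicates was 57.83% with 500 left out, 32.38% with 1500 left out, 60.06% among the 2500 strongest, 29.26% with an overlap of 50% and 42.63% with matched summits. The causes were not tested. Read depth is unknown, so it could not be set beside the peaks that 1 replicate lacked.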

Other observations

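Several 8-base sequences were picked out after the weak summit windows, 50 bp to each side, had been read, so they are given as counts without a test. GCGAGACC, searched on both strands like the others, was in 48 of 868 weak one-direction windows (5.53%), 121 of 461 strong one-direction windows (26.2%), 10 of 339 weak divergent windows (2.95%), 12.8% of windows at all 3250 summits and 0.516% of promoter windows of all genes. AAAGGCGC was in 63 weak one-direction windows (7.26%), 147 strong ones (31.9%), 16 weak divergent ones (4.72%), 13.4% of all summit windows and 0.726% of promoter windows. CTACAGTA was in 6.34%, 13.7% and 3.24% of the same peak sets, 8.12% of all summit windows and 1.07% of promoter windows. These 3 were thus rarer by count in weak one-direction windows than over the whole list. At sre-40 and nhr-247 the window holds GCGAGACC more than once, on the other strand, within a tandem repeat. The placing of reads in repeats is not stated, and the part of repeats in these counts was not tested.

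GCAAACAC had another order. It was in 60 weak one-direction windows (6.91%), 10 strong ones (2.17%), 46 weak divergent ones (13.6%), 4.55% of all summit windows and 1.12% of promoter windows, and duo-1, which encodes a ubiquitinyl hydrolase, was a member with it at a signal of 252.1. GAGACGCA, which overlaps the motif GCGTCTC on the other strand, was in 5.53% of weak one-direction, 5.86% of strong and 5.01% of weak divergent windows, and in 5 of the 26 windows on X (19.2%, exact 95% interval 6.55 to 39.4%), 43 of the 842 windows of members on autosomes (5.11%) and 0.989% of promoter windows of X genes. GCGAGACC was likewise in 5 of the 26 and in 43 of the 842, and in 0.22% of promoter windows of X genes.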
